A study of Mus musculus with 4 samples.

Results

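The genes described here are 10 members of the Bcl2 family, which were taken from the deposited table by their symbols and make up 10 of its 23418 gene symbols. They comprise the pro-survival genes Bcl2, Bcl2l1, Mcl1 and Bcl2a1b, the pore-forming effectors Bax and Bak1, and the BH3-only genes Bcl2l11, Bbc3, Pmaip1 and Bid. RNA was sequenced from B cells sorted out of cervical lymph nodes of mice of the strains labelled BL/10 (the control) and NOD.B10, with 2 libraries for each strain. NOD.B10 is a congenic strain, with the H2 haplotype of C57BL/10 placed on the NOD genome, and its mice develop a disease of the salivary and tear glands that resembles Sjögren's disease. The labels give the strain and the sorted cell type, and name no treatment, so the 2 groups differ by strain alone as far as the labels go. Whether each library is a separate animal is not stated. The p-values hence measure only how far these samples spread, and that spread may be technical.

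Proteins of the Bcl2 family decide whether the outer membrane of the mitochondrion stays intact. Pro-survival members bind and restrain the effectors Bax and Bak, and BH3-only proteins, which are induced or activated by growth factor loss, DNA damage and other stress, release that restraint or activate the effectors directly. Once the effectors form pores, cytochrome c leaves the mitochondrion and caspases are activated. In the B lineage, Bcl2 and Mcl1 support mature B cells, Bcl2l1 (Bcl-xL) is best known for immature stages, and Bcl2l11 (Bim) is the main killer of unneeded and self-reactive lymphocytes.

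The libraries held between 19328803 and 29372751 reads. Defining B cell markers were abundant in all 4 libraries, with a summed level of 9373 and 9557 counts per 1000000 reads (CPM) in BL/10 and 10330 and 10950 CPM in NOD.B10, and 1 of 10 passed the test, the low-affinity IgE receptor gene Fcer2a, which was higher in NOD.B10. T cell markers were present in BL/10 and fell in NOD.B10 in 15 of 15 cases, from a summed 494 and 588 CPM to 54.7 and 57.2 CPM, most of the remainder being Lck (38.3 and 45.9 CPM). Of 8 proliferation markers 4 fell (summed 274 and 324 CPM against 196 and 181 CPM), and of 6 plasma cell markers tested 2 fell. Natural killer (5 of 5 tested), macrophage (3 of 6), dendritic (2 of 5), neutrophil (2 of 3), mast (3 of 3) and erythroid (3 of 3) markers were called only lower. In bulk RNA, fewer cells of a type and less RNA per cell cannot be told apart, and the part of any of these differences in the results below was not tested.

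Of the 10 members, 3 differed between the strains: Bcl2 was higher in NOD.B10, and Bcl2l1 and Bbc3 were lower (edgeR quasi-likelihood test with Benjamini-Hochberg adjustment over 13075 genes, called under 0.05). Over all genes tested, 15.2% were called, 6.55% as higher and 8.63% as lower. The members' share of 30% rests on 3 genes and is read as no more than a count. The median log2 fold change of the members was −0.22, beside −0.0032 over all genes. Leaving out 1 library gave 4 members called without BL/10 replicate 1, 2 without BL/10 replicate 2, 5 without NOD.B10 replicate 1 and 2 without NOD.B10 replicate 2. The 2 strains did not overlap in 7 members, 1 above and 6 below in NOD.B10, where 55.6% of all genes did not overlap (27.9% above and 27.7% below).

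**Figure D1:**
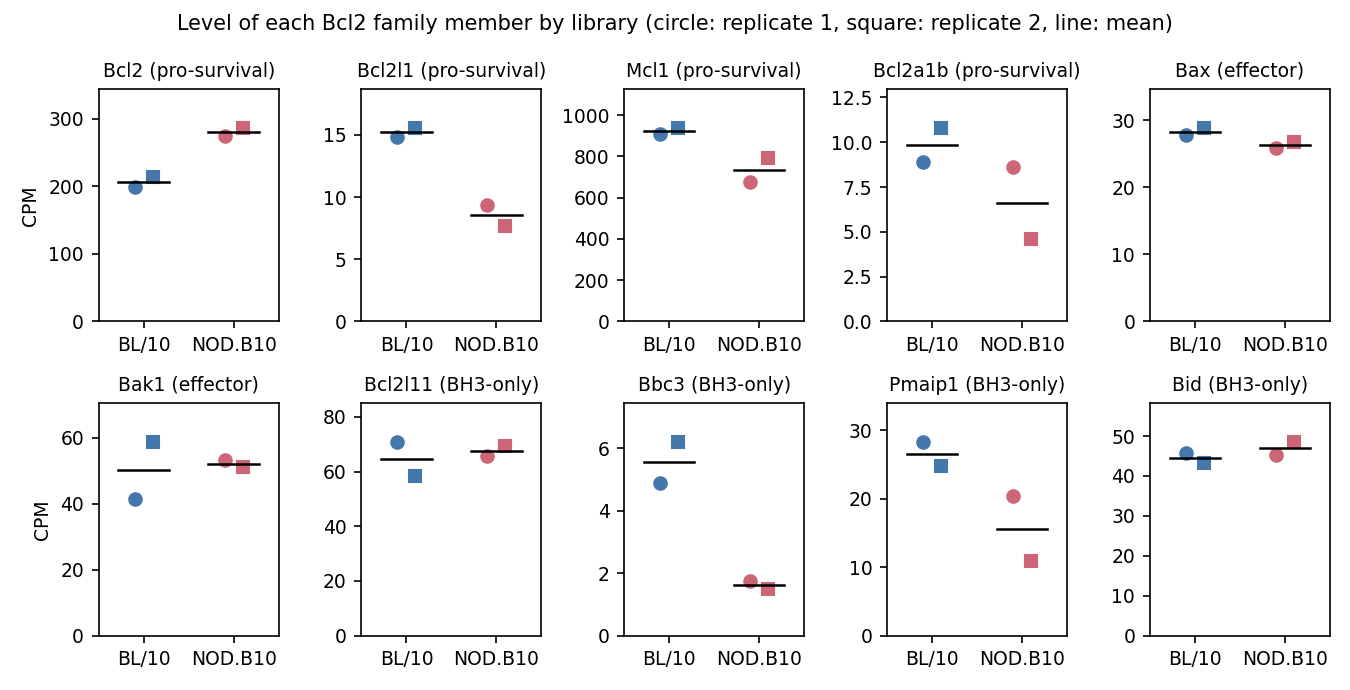
CPM of each member (y axis, starting at 0) in the 2 BL/10 and 2 NOD.B10 libraries, with circles for replicate 1, squares for replicate 2 and lines for the means. Bcl2 is higher in both NOD.B10 libraries, Bcl2l1 and Bbc3 are lower in both, and Pmaip1 and Bcl2a1b are spread widely between the NOD.B10 libraries.

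Bcl2, the founding pro-survival gene (chromosome 1, 106538176 to 106714290, GRCm38.p6, minus strand), stood at 199 and 214 CPM in the BL/10 libraries and at 274 and 287 CPM in the NOD.B10 libraries. Both NOD.B10 values lay above both BL/10 values. The means were 206 ± 10.5 CPM and 280 ± 9.14 CPM (SD, n = 2), a 1.36-fold rise (log2 fold change 0.44, SE 0.104, 95% interval 0.22 to 0.67, edgeR adjusted p = 0.0113). With NOD.B10 replicate 2 left out, Bcl2 missed the threshold (adjusted p = 0.0798). An antisense transcript, D630008O14Rik, shares 558 exonic bases with Bcl2 in GENCODE M21. It is not among the gene symbols of the deposited table and was not analysed here.

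Bcl2l1, which encodes Bcl-xL (chromosome 2, 152758732 to 152833803), moved the opposite way. It had 14.9 and 15.6 CPM in BL/10 and 9.38 and 7.67 CPM in NOD.B10, so the groups did not overlap. The level fell 1.79-fold from 15.2 ± 0.51 to 8.53 ± 1.2 CPM (SD, n = 2, log2 fold change −0.84, SE 0.212, edgeR adjusted p = 0.0162). Bcl2l1 missed the threshold with BL/10 replicate 2 left out (adjusted p = 0.0512) or NOD.B10 replicate 2 left out (adjusted p = 0.077).

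Mcl1 (chromosome 3, 95656944 to 95663179) encodes a short-lived protein on which lymphocytes depend. Its level was 908 and 939 CPM in BL/10 and 673 and 794 CPM in NOD.B10. Both NOD.B10 libraries lay lower, but the gene just missed the threshold (log2 fold change −0.33, SE 0.105, 95% interval −0.56 to −0.10, edgeR adjusted p = 0.0509). It passed in 6 of 13 alternative analyses, and its log2 fold change was −0.23 with NOD.B10 replicate 1 left out (adjusted p = 0.46) and −0.46 with replicate 2 left out (adjusted p = 0.0344).

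Bcl2a1b belongs to a set of near-identical copies of the A1 gene, an NF-kB-induced pro-survival gene, on mouse chromosome 9. Its counts depend on the bases at which the copies differ, and those of the coding sequence are shown first. Untranslated bases, which can also hold reads, entered only the 50-base windows given below. Over 516 coding bases, Bcl2a1b differed from Bcl2a1d at 6 positions (98.8% identity) and from Bcl2a1a at 11 (97.9% identity), and Bcl2a1a differed from Bcl2a1d at 7. The first 150 coding bases of the GENCODE M21 transcripts hold 7 of the 12 coding positions at which any of the 3 copies differs. Those positions are in capitals, counted from 1 at the A of the start codon.
Bcl2a1a: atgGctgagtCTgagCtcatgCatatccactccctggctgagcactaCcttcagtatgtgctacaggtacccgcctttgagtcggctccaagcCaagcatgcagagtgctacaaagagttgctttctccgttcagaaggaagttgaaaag
Bcl2a1b: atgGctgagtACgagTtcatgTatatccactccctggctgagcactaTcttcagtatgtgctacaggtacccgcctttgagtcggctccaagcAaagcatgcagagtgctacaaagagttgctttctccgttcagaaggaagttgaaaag
Bcl2a1d: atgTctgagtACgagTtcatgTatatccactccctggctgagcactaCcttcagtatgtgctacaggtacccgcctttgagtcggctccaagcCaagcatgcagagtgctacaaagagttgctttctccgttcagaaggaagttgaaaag
From Bcl2a1b to Bcl2a1d the changes were G4T, T48C, A94C, G312A, C381G and T490A, with the base of Bcl2a1b first. Of all 50-base windows of the transcripts, 42.4% of those of Bcl2a1b, 20.5% of those of Bcl2a1d and 31% of those of Bcl2a1a occurred in none of the other copies (Bcl2a1c included). In GENCODE M21, Bcl2a1b also shares 401 exonic bases with Gm29094 on the same strand, where strand cannot separate the reads. Gm29094 is not among the gene symbols of the deposited table. The read length and the treatment of reads that match several copies are not given in the sources used here.

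Bcl2a1b (chromosome 9, 89199273 to 89207838) had 264 and 279 reads in BL/10 and 166 and 117 reads in NOD.B10, which is 8.91 and 10.8 CPM against 8.6 and 4.58 CPM. NOD.B10 replicate 1 lay close to BL/10 and replicate 2 well below it. The difference was not called (log2 fold change −0.59, SE 0.303, 95% interval −1.25 to 0.07, edgeR adjusted p = 0.243). Leaving out NOD.B10 replicate 1 gave a called log2 fold change of −1.11 (adjusted p = 0.0109), and leaving out replicate 2 gave −0.20 (adjusted p = 0.775).

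Its copy Bcl2a1d pointed upward, with 3.28 and 3.33 CPM in BL/10 and 5.85 and 4.38 CPM in NOD.B10 (log2 fold change 0.63, SE 0.329, edgeR adjusted p = 0.251, not called). Bcl2a1a had 1, 14, 10 and 8 reads, and the separate copy Bcl2a1c had 2, 1, 0 and 0 reads. Within a library, Bcl2a1b took 72.9% of the reads on Bcl2a1a, Bcl2a1b and Bcl2a1d in the first BL/10 library (exact 95% binomial interval 68% to 77.4%) and 73.6% in the second (68.9% to 78%). In NOD.B10 the share was 57.4% (51.5% to 63.2%) and 49.4% (42.8% to 55.9%). The shares of the 2 strains did not overlap, and no scaling factor enters them. The copies were compared on the reference genome alone. NOD.B10 sequence and copy number at this locus were not analysed here, so a change in the level of a copy and a change in which copy its reads match cannot be told apart. The intervals cover counting error only, and the difference between strains in these shares was not tested. Summing the 3 copies into 1 gene was tried once their values were known, and the log2 fold change was −0.16 (edgeR adjusted p = 0.76).

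**Figure D2:**
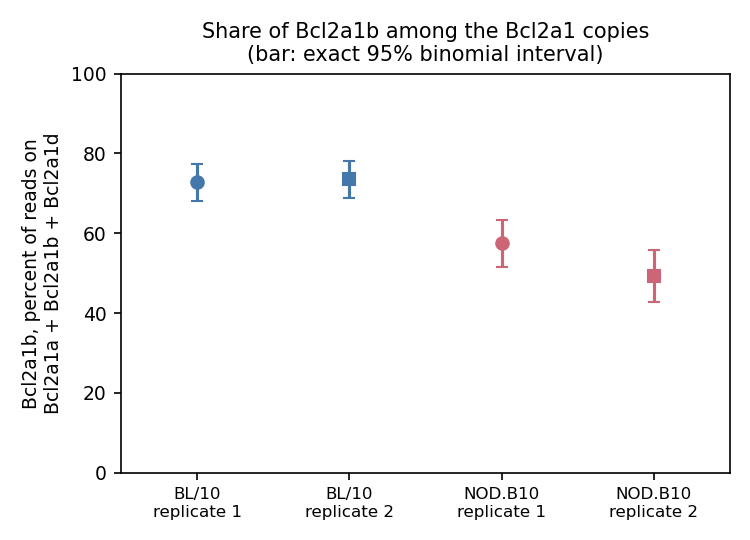
Reads assigned to Bcl2a1b as a percent of the reads on Bcl2a1a, Bcl2a1b and Bcl2a1d together (y axis) in each library, with exact 95% binomial intervals as bars. The BL/10 libraries lie at 72.9% and 73.6%, and the NOD.B10 libraries at 57.4% and 49.4%.

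Neither effector gene was called. Bax (chromosome 7, 45461695 to 45466903) had 27.7 and 28.9 CPM in BL/10 and 25.9 and 26.8 CPM in NOD.B10, with the NOD.B10 libraries slightly lower (log2 fold change −0.10, SE 0.15, 95% interval −0.43 to 0.22, edgeR adjusted p = 0.736). Bak1 (chromosome 17, 27019812 to 27028627) had 41.5 and 58.7 CPM in BL/10 and 53.1 and 51.2 CPM in NOD.B10. The NOD.B10 values fell between those of BL/10 (log2 fold change 0.06, SE 0.159, 95% interval −0.29 to 0.41, edgeR adjusted p = 0.875). Bax shares 192 exonic bases in GENCODE M21 with Gm45808 on the same strand, a symbol that the deposited table does not hold. Exons of Bak1 share bases with the opposite-strand gene Ggnbp1, which had at most 75 reads in a library against at least 1025 for Bak1.

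Among the BH3-only genes, Bbc3 differed most. Bbc3 encodes PUMA, a p53-induced activator of apoptosis that binds all pro-survival members (chromosome 7, 16308398 to 16318334). It had 145 and 160 reads in BL/10 and 34 and 38 reads in NOD.B10, or 4.9 and 6.2 CPM against 1.76 and 1.49 CPM. Both NOD.B10 libraries lay far below both BL/10 libraries. The level fell 3.42-fold from 5.55 ± 0.922 to 1.62 ± 0.194 CPM (SD, n = 2, log2 fold change −1.77, SE 0.364, 95% interval −2.56 to −0.99, edgeR adjusted p = 0.00481). Bbc3 was called in 13 of 13 alternative analyses, with adjusted p between 1.1e-04 and 0.0422. In the same libraries, 15 of 15 T cell markers were called lower. Of the 8 proliferation markers, 7 had a log2 fold change below 0 and 4 were called lower. Markers of several other cell types were called lower as well, as given above. The part of any of these cells in the fall of Bbc3 was not tested.

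Pmaip1 encodes NOXA, a p53-induced partner of the Mcl1 and A1 proteins (chromosome 18, 66458604 to 66465558). It had 28.3 and 24.8 CPM in BL/10 and 20.3 and 10.8 CPM in NOD.B10. Both NOD.B10 values were lower but differed widely from each other, and the gene was not called (log2 fold change −0.78, SE 0.272, 95% interval −1.40 to −0.15, edgeR adjusted p = 0.102). It was called in 5 of 13 alternatives, and the log2 fold change was −1.30 when NOD.B10 replicate 1 was dropped (adjusted p = 4.3e-06) and −0.38 when replicate 2 was (adjusted p = 0.296).

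The NOD.B10 libraries also differed from each other in immediate-early genes, which are induced within minutes of stimulation, and 7 of which were picked with their values in view, none of them called. Fos stood at 228 CPM in the first NOD.B10 library and 10.7 CPM in the second, beside 47.9 and 28.2 CPM in BL/10. Fosb had 284 and 8.65 CPM and Jun 397 and 78.1 CPM in the NOD.B10 libraries. Bcl2a1b and Pmaip1 were higher in the library with more Fos, and Mcl1 was lower there. The part of these differences in the values of the members was not tested.

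Bcl2l11 and Bid showed no detectable difference. Bcl2l11, which encodes Bim (chromosome 2, 128126038 to 128162547), had 70.8 and 58.6 CPM in BL/10 and 65.7 and 69.4 CPM in NOD.B10, with overlapping groups (log2 fold change 0.06, SE 0.129, 95% interval −0.22 to 0.34, edgeR adjusted p = 0.826). Bid (chromosome 6, 120893119 to 120917062), which links death receptors to mitochondria once caspase 8 has cut its protein, had 45.7 and 43.3 CPM in BL/10 and 45.3 and 48.5 CPM in NOD.B10. These groups overlapped as well (log2 fold change 0.08, SE 0.128, 95% interval −0.20 to 0.35, edgeR adjusted p = 0.777). In GENCODE M21, Bid shares 628 exonic bases with the opposite-strand gene Bcl2l13. The RefSeq positions do not overlap, as Bcl2l13 ends there at 120892842. How reads in a shared stretch were counted is not given in the sources used here.

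**Figure D3:**
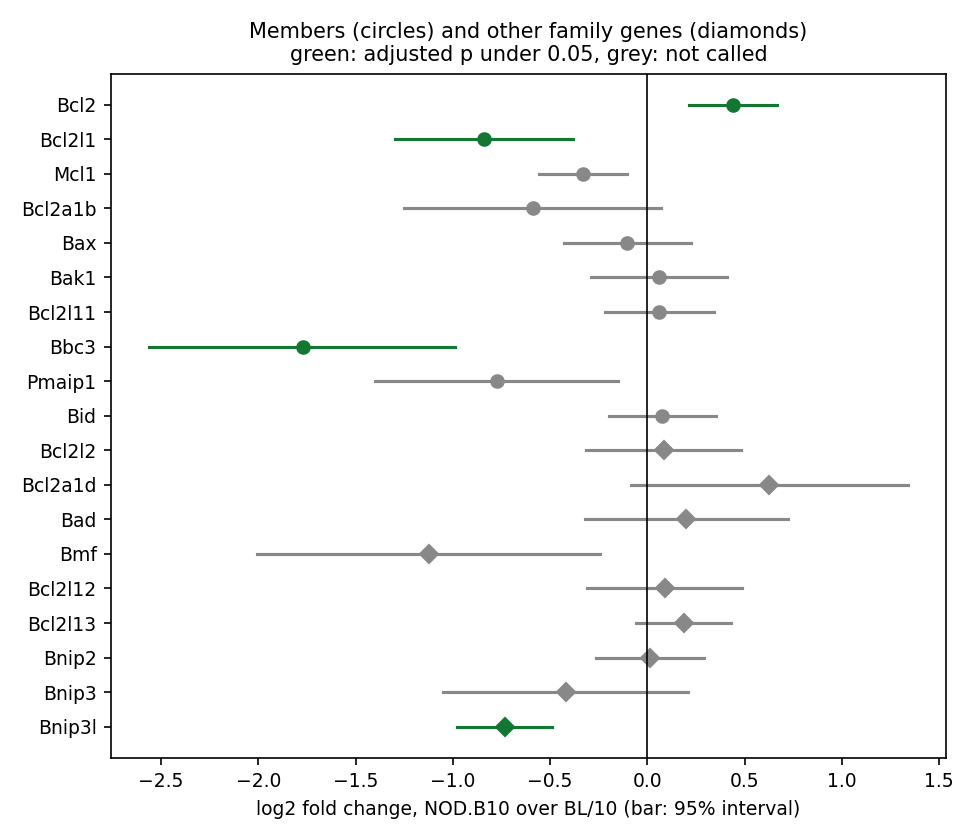
Log2 fold change of NOD.B10 over BL/10 (x axis) with its 95% interval for the 10 members (circles) and for the other tested family genes with a mean of at least 1 CPM in either strain (diamonds), green where called. Bcl2 lies to the right of 0, and Bcl2l1, Bbc3 and Bnip3l to the left.

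Between genes, levels were compared per length, as CPM per kilobase of the deposited gene length (RPKM). In BL/10, Mcl1 was highest at 265 ± 6.19 RPKM (SD, n = 2), followed by Bax at 32.6, Bcl2 at 26.7, Bak1 at 25 and Bid at 23.5 RPKM. Bcl2 lay above Bid without overlap, while Bak1 overlapped both of them and could not be placed between them. Bcl2a1b (12.9) and Bcl2l11 (12.8) were also within their spread, and Pmaip1 (9.99), Bcl2l1 (6.42) and Bbc3 (2.81 RPKM) came last without overlap. In NOD.B10, Mcl1 led again at 210 ± 24.5 RPKM, and Bcl2 came next at 36.2 RPKM, above Bax at 30.3 RPKM. Bak1 (26.1) and Bid (24.8) overlapped, as did Bcl2a1b (8.63) and Pmaip1 (5.87), below Bcl2l11 (13.4), and Bcl2l1 (3.6) and Bbc3 (0.822 RPKM) were again the lowest.

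The make-up of the pro-survival group shifted within each library, in shares that do not depend on scaling between libraries. Bcl2 made up 8.45% and 8.7% of the summed RPKM of the 4 pro-survival members in BL/10 and 14.5% and 13.5% in NOD.B10. Mcl1 made up 85.7% and 84.8% in BL/10 and 79.2% and 83.1% in NOD.B10. The ratio of Mcl1 to Bcl2 was 10.1 and 9.74 in BL/10 and 5.46 and 6.15 in NOD.B10. The ratio of Bcl2 to Bcl2l1 was 4.1 and 4.21 in BL/10 and 8.94 and 11.4 in NOD.B10. Neither ratio overlapped between the strains, which the levels of their genes given above had already fixed. Of other gene pairs compared, Mcl1 to Pmaip1 and Bak1 to Bax overlapped, and Bcl2l11 to Bbc3 did not.

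Among the 4 BH3-only members, the shares of Bbc3 and Pmaip1 fell. The BH3-only gene Bmf is not a member and is not in this sum. It had 21.5 and 15.1 RPKM in BL/10 and 6.18 and 10.5 RPKM in NOD.B10. Bbc3 made up 4.82% and 6.68% of the summed RPKM of the 4 members in BL/10 and 1.96% and 1.7% in NOD.B10. Pmaip1 made up 20.7% and 19.9% in BL/10 and 16.8% and 9.23% in NOD.B10. Bid rose in share from 47.1% and 48.7% to 52.6% and 57.9%, and Bcl2l11 from 27.4% and 24.7% to 28.6% and 31.1%. Neither Bid nor Bcl2l11 was called, and as the shares have a fixed sum, a fall of some raises the others. The ratio of Bcl2 to Bcl2l11, the pair best known for setting the survival of resting B cells, was 1.83 and 2.38 in BL/10 and 2.71 and 2.69 in NOD.B10. The ratio of all 4 pro-survival to all 4 BH3-only members overlapped between strains, at 5.92 and 6.75 in BL/10 and 5.35 and 6.19 in NOD.B10. Mcl1 is most of the upper sum in that ratio. These shares and ratios are descriptions without a test.

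**Figure D4:**
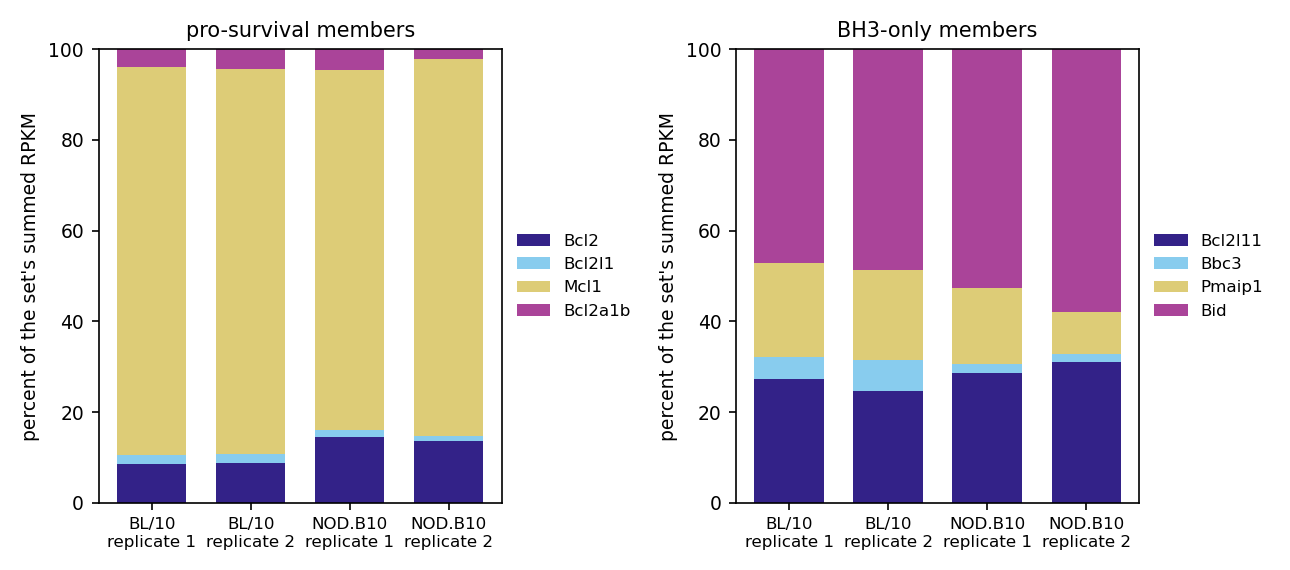
Share of each gene (y axis, percent) in the summed RPKM of the 4 pro-survival members (left) and of the 4 BH3-only members (right), 1 bar per library. Mcl1 fills most of the left bars, the Bcl2 band is thicker in NOD.B10, and the Bbc3 and Pmaip1 bands in the right bars are thinner there.

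The genes whose centred log2 CPM over the 4 libraries lay closest to a called member were listed among 8480 candidates whose log2 CPM averaged 3 or more. For Bcl2 they were Nfe2l1, Bend5 and Jak3, with root mean square differences of 0.0105, 0.0134 and 0.0161 log2 units. For Bcl2l1 they were Smpdl3a, Ctse and Fancc (0.0195, 0.0467 and 0.0557). For Bbc3 they were Them6, the topoisomerase gene Top2a and Tbc1d2b (0.0272, 0.0609 and 0.0878). The 9 genes were all called in the direction of their member, which their selection over the same 4 libraries all but fixed. Likeness over 4 libraries in 2 groups is a description only.

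The remaining family genes were described from lists that extend the 10 members. Bmf, a BH3-only gene whose protein responds to loss of attachment and of growth signals, had 99.4 and 69.8 CPM in BL/10 and 28.7 and 48.7 CPM in NOD.B10. Both NOD.B10 values were lower, but the spread within strains was wide and the gene was not called (log2 fold change −1.12, SE 0.326, edgeR adjusted p = 0.111). It was called in 5 of 13 alternatives, among them those that dropped NOD.B10 replicate 1 (log2 fold change −0.81, adjusted p = 1.4e-04) or replicate 2 (−1.56, adjusted p = 4.1e-14). Dropping BL/10 replicate 1 (−0.85, adjusted p = 0.505) or replicate 2 (−1.36, adjusted p = 0.292) left it far from a call, as did a replicate block (adjusted p = 0.273). Bnip3l, a mitophagy receptor also known as Nix, had 143 and 131 CPM in BL/10 and 81.5 and 83 CPM in NOD.B10. It was 1.66-fold lower (log2 fold change −0.73, SE 0.114, edgeR adjusted p = 6.3e-04) and was called in 13 of 13 alternatives. It is also known for clearing mitochondria from maturing red cells. The erythroid genes Slc4a1 (10.1 and 17.5 CPM in BL/10, 0 in NOD.B10) and Alas2 (174 and 275 against 9.74 and 4.27 CPM) were lower in the same libraries. The part of red cells in the level of Bnip3l was not tested.

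Of the other tested family genes, Bcl2l2, Bad, Bcl2l12, Bcl2l13, Bnip2 and Bnip3 had 5.48 to 95.1 CPM in every library, and none was called. Their log2 fold changes ran from −0.42 for Bnip3 to 0.20 for Bad. Bik and Bcl2l14 had at most 23 reads in a library and were not called either. Bcl2l10, Bok, Hrk and Bcl2l15 had at most 12 reads in any library and were not tested, so differences in them were not detectable at this depth.

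Downstream and upstream of the family, 12 of 65 tested pathway genes were called (18.5%, beside 15.2% of all genes), 6 higher and 6 lower, with a median log2 fold change of 0.06. The count was between 7 and 8 when any 1 library was left out. Among 12 genes of the apoptosome, caspases and released mitochondrial factors, 1 was called. This was Dffa, the inhibitor and chaperone of the caspase-activated nuclease, which rose from 39.5 ± 0.473 to 55.4 ± 4.97 CPM (log2 fold change 0.49, edgeR adjusted p = 0.021). Dffa missed the threshold with NOD.B10 replicate 2 left out (adjusted p = 0.172).

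Of 5 inhibitor of apoptosis genes, 2 rose and 1 fell. Birc3, an NF-kB-induced ubiquitin ligase known as cIAP2, rose from 244 ± 7.65 CPM to 332 ± 5.36 CPM, by a log2 fold change of 0.44 (SE 0.101, edgeR adjusted p = 0.00894), but missed the threshold with NOD.B10 replicate 1 left out (adjusted p = 0.0735). Birc6, a giant ubiquitin ligase, rose from 770 ± 36.3 to 975 ± 82.9 CPM (edgeR adjusted p = 0.038). Birc6 missed the threshold with BL/10 replicate 2 or NOD.B10 replicate 1 left out (adjusted p = 0.063 and 0.407), under a replicate block (0.0562) and with robust estimation off (0.0501). Birc5 (survivin), a gene of dividing cells, fell from 2.04 ± 0.683 to 0.553 ± 0.0489 CPM (edgeR adjusted p = 0.0438), and was called in 6 of 13 alternatives. Of the 8 proliferation markers above, 4 were called lower in the same libraries. The part of dividing cells in the fall of Birc5 was not tested.

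Of 10 tested p53 genes and targets, 1 rose and 1 fell. Zmat3, an RNA-binding p53 target, rose from 37.4 ± 0.138 CPM to 56.9 ± 5.08 CPM, by a log2 fold change of 0.60 (SE 0.13, edgeR adjusted p = 0.00669), and missed the threshold at 0.0661 with NOD.B10 replicate 1 left out. Trp53inp1, another p53 target, had 454 and 292 CPM in BL/10 and 209 and 217 CPM in NOD.B10 (log2 fold change −0.81, edgeR adjusted p = 0.0496). It missed the threshold when scaled by library totals (0.0599) or filtered more strictly (0.053), and its log2 fold change was −0.46 with BL/10 replicate 1 left out. Trp53 itself, picked with its values in view, did not pass (log2 fold change 0.07, adjusted p = 0.848). Bbc3, Pmaip1 and Bax of the members are known p53 targets as well, and of these only Bbc3 was called.

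Of 7 mitochondrial channel and shape genes, Mff, a receptor for the fission enzyme, was called lower (62.1 ± 3.25 against 46.7 ± 3.1 CPM, edgeR adjusted p = 0.0424) and kept its call in 7 of 13 alternatives. Of 8 upstream regulators of Bcl2l11 and Mcl1, Huwe1 was called. Huwe1 is a ubiquitin ligase that marks Mcl1 protein for destruction, and it rose from 713 ± 70 to 916 ± 6.53 CPM (log2 fold change 0.36, edgeR adjusted p = 0.0287). Huwe1 missed the threshold with BL/10 replicate 2, NOD.B10 replicate 1 or NOD.B10 replicate 2 left out (adjusted p = 0.0729, 0.124 and 0.114).

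Of 11 death receptor and necroptosis genes, 2 fell and 1 rose. Tnfrsf1a, the main TNF receptor, fell 11.2-fold from 4.27 ± 0.0693 to 0.371 ± 0.0847 CPM (log2 fold change −3.49, SE 0.491, edgeR adjusted p = 2.6e-04) and was called in 13 of 13 alternatives. Fasl, the ligand of Fas and a product of activated T and natural killer cells, had 16 reads in each BL/10 library and 0 in both NOD.B10 libraries. It was at least 8.63-fold lower against 3 reads over the group (edgeR adjusted p = 0.015). Fasl missed the threshold with BL/10 replicate 1, BL/10 replicate 2 or NOD.B10 replicate 2 left out (adjusted p = 0.0675, 0.0931 and 0.0607). Its bound dropped to 4.92-fold when NOD.B10 replicate 1 was left out and 3.71-fold when replicate 2 was. Tnfrsf10b, the TRAIL receptor, rose from 3.34 ± 0.478 to 6.9 ± 1.48 CPM (log2 fold change 1.05, edgeR adjusted p = 0.0373), and was called in 9 of 13 alternatives. As given above, 15 of 15 T cell markers and 5 of 5 tested natural killer cell markers fell in NOD.B10. All 6 tested macrophage markers had a log2 fold change below 0 (median −0.92). Of these, Csf1r, Ccr2 and Apoe were called lower, and Lyz2 and C1qa overlapped between the strains. The part of these cell types in the falls of Fasl and Tnfrsf1a was not tested.

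**Figure D5:**
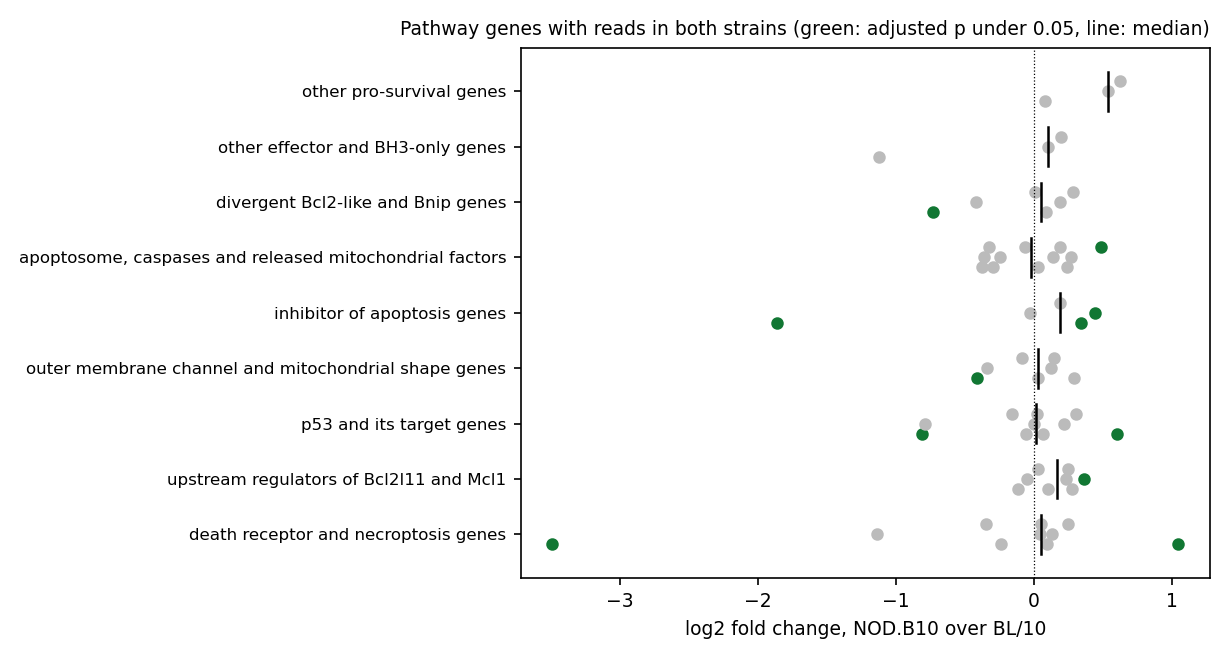
Log2 fold change of NOD.B10 over BL/10 (x axis) for tested pathway genes with reads in both strains, by list (y axis), green where called, with the median of the genes drawn as a line. List medians lie near 0 except for the small list of other pro-survival genes, and the called genes lie on both sides.

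The 250 bases before the annotated transcription starts were searched for sites of factors known to act on this family, from RefSeq promoters of GRCm38.p6. Promoters were in hand for 9 of the 10 members, in 14 windows, and Pmaip1 was not searched. For Mcl1, Bbc3 and Bcl2l1, all windows lay within the gene positions given above, and the Bid window nearly did. For these genes the bases before the outermost start were hence not searched, or hardly so for Bid. The motif TGTTTAC of FOXO factors, sought on both strands, occurred in 2 of the 14 windows, each of another member, and in 3.17% of 32851 windows of all genes. Those members were Bbc3 and Bcl2l11, both known as FOXO targets, and the stretch around each match is shown with the motif in capitals. The Bcl2l11 stretch is chr2:128125800-128125829 on the plus strand, with the motif on the other strand. Its leftmost capital as printed lies 227 bases before the start. The Bbc3 stretch is chr7:16310083-16310112 on the plus strand, and its motif begins 167 bases before 1 of the annotated starts.
Bcl2l11: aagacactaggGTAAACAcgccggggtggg
Bbc3: tctggcgggttTGTTTACaaacaatggggt
Bbc3 fell 3.42-fold and Bcl2l11 was not called. Foxo1, picked with its values in view, had 468 and 476 CPM in BL/10 and 591 and 552 CPM in NOD.B10. It did not pass (log2 fold change 0.28, edgeR adjusted p = 0.0784), and neither did Foxo3 (log2 fold change 0.03, edgeR adjusted p = 0.901). The part of FOXO factors in the levels of Bbc3 and Bcl2l11 was not tested. Of the 14 windows, the p53 half-site occurred in 1 (Bax), beside 7.13% of all windows, the NF-kB site in 2 (Bcl2l1 and Bbc3), beside 5.93%, and the motif CACGTG in 2 (Bbc3 and Bax), beside 6.02%. The GC box GGGCGG occurred in 10 of the 14 windows, in 7 members, beside 32.7% of all windows. The cyclic AMP response element TGACGTCA occurred in 0, beside 1.55%. A match is a description of letters and not evidence of binding.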

How the data were processed

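The authors deposited 1 table of raw read counts per gene symbol for 4 libraries, with a gene length in bases. The submitters' processing notes name mm10 as the build, featureCounts, HISAT2 (version 2.1.0), Subread (1.6.5) and SAMtools (1.3). Annotation, strand and multi-mapping settings are not given in the sources used here. Columns were matched to samples by library name, and 0 sample columns were left unused.

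Counts were compared with edgeR 4.0.16 (limma 3.58.1, R 4.3.3): TMM factors, filterByExpr with a minimum count of 10 and total of 15, robust glmQLFit and glmQLFTest, two-sided, with Benjamini-Hochberg adjustment over 13075 genes. Levels are CPM over TMM-scaled totals. The SE is the unshrunk log2 fold change over the square root of F. DESeq2 1.42.0, limma-voom, other factors and filters, a replicate block and each library left out were alternatives. Same-numbered libraries did not deviate together over all genes (r = −0.0165), and the main fit used no pairing. That check cannot show a pairing that touches only some genes.

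Members and gene lists were chosen with earlier results of these data known. Named are all members and family genes, and up to 4 called genes of each other pathway list. Positions are 1-based on GRCm38.p6 (RefSeq). GENCODE M21 gave transcripts.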

Additional observations from a re-analysis of the deposited data

How the results depend on the processing

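With 2 libraries per strain, small differences are hard to call. The count of members called was 5 with no filter, 5 with DESeq2 and 2 to 5 with 1 library left out, against 3. All genes called were 1756 to 2074 with 1 library left out, and with NOD.B10 replicate 1 left out 67.7% of the calls were lower, against 56.8%. Pathway genes called were 7 to 8 with 1 library left out, against 12. Mcl1 passed with RLE factors (−0.34), no filter (−0.33), the stricter filter (−0.34) and DESeq2 (−0.34). Pmaip1 passed with no filter (−0.78), DESeq2 (−0.78), limma-voom (−0.89) and a replicate block (−0.83, adjusted p = 0.0188). The block left 4 members and 1802 genes called. With 1 library left out, log2 fold changes ran from 0.39 to 0.49 for Bcl2, −0.997 to −0.70 for Bcl2l1, −0.46 to −0.23 for Mcl1, −1.11 to −0.20 for Bcl2a1b and −1.30 to −0.38 for Pmaip1. They crossed 0 for Bak1 (−0.17 to 0.32), Bcl2l11 (−0.0739 to 0.21), Bcl2l2 (−0.0688 to 0.25), Bcl2a1a (−0.40 to 3.42), Bik (−0.68 to 0.86), Bcl2l12 (−0.0713 to 0.22), Bcl2l14 (−0.41 to 0.90) and Bnip2 (−0.13 to 0.16). Causes were not tested.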

Other observations

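The BL/10 libraries differed from each other in plasma cell genes. Igj, the joining chain of secreted antibodies, had 608 and 119 CPM in BL/10 and 14 and 7.2 CPM in NOD.B10, and Sdc1 had 19.8 and 7.94 CPM against 5.34 and 5.29 CPM. Neither was called (edgeR adjusted p = 0.209 and 0.0755), while Prdm1 and Tnfrsf17 were called lower. Plasma cells are known to depend on Mcl1. Mcl1 had 908 CPM in the library with the most Igj and 939 CPM in the other BL/10 library, and the part of plasma cells in its values was not tested.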
